A study of Mus musculus with 17 samples.

Results

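The genes described here are those of the leukaemia inhibitory factor (LIF) receptor and of the signalling chain behind it, from receptor to kinase to transcription factor to feedback inhibitor. Every probe set annotated to exactly 1 of the symbols Lifr, Il6st, Osmr, Stat3, Jak1, Jak2, Tyk2, Socs1, Socs3 and Pim1 was taken. This gave 11 probe sets for 10 genes, of 21354 probe sets with 1 gene symbol for 19751 genes, and Socs3 had 2 of them. RNA came from plasmacytoid dendritic cells, the type I interferon producers among dendritic cells, from the bone marrow of C57BL/6 mice. They had been enriched with magnetic beads by negative selection and sorted as CD11c-intermediate, B220-positive and SiglecH-positive cells. The 17 arrays covered CpG-A + LIF, CpG-A, CpG-B + LIF, CpG-B and LIF alone (3 arrays each) and untreated cells in medium (2 arrays). LIF was used at 10 ng/ml for 20 to 24 h in all and was added 1 h ahead of CpG, and the oligonucleotides CpG-A (2216) and CpG-B (1826) were used at 6 µg/ml for 19 to 23 h. The submitters' design text gives 18 to 24 h for CpG and 1 or 24 h for LIF, and the source names of the samples word the order of CpG and LIF ambiguously. Both oligonucleotides are ligands of the endosomal receptor TLR9, and cells sorted alike, with no genetic change named, are common to all groups.

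LIF binds a receptor made of LIFR and gp130, the second of which is encoded by Il6st and shared by most of the IL-6 cytokine family. Receptor-bound JAK kinases then phosphorylate STAT3, which enters the nucleus and switches on target genes. Among these targets is SOCS3, which binds gp130 and the JAKs and so shuts the pathway off again. In dendritic cells STAT3 is known both for its part in their development and for restraining their activation. The comparisons asked what LIF does to this chain in resting cells and in cells given either CpG, and what each CpG does to it.

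The deposited intensities have lost their decimal mark, so only their leading digits are known, not their power of 10. A log2 value is then fixed only up to whole multiples of 3.32, the log2 of 10, and every difference has more than 1 possible size. Each difference is given as its nearest reading, the one between -1.66 and 1.66 log2 units, ± its SE. Where the other reading matters it follows in parentheses. A difference was called at an adjusted p under 0.05 (limma over all 21354 probe sets, Benjamini-Hochberg). A direction was given only to a called reading of at most 1.11 in size, or 2.15-fold, since the other reading is then at least 4.64-fold the opposite way. This limit takes the smaller change and does not exclude the other reading. Directions of larger readings are unsettled. A change close to 10-fold would read as none, and so a probe set that was not called is not thereby shown to be unchanged. Levels cannot be compared between genes on this scale.

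Few of the 11 member probe sets were called in the LIF comparisons, where few of all probe sets were called either. In LIF vs medium 1 of 11 probe sets was called, a Socs3 probe set of unsettled direction, where 0.731% of all probe sets were called. That share rests on the medium arrays: it was 0.0468% without medium replicate 3, 0.14% without medium replicate 1 and 0.0515% with only the arrays compared, against 1, 1 and 0 of the 11 members. In CpG-A + LIF vs CpG-A 0 of 11 were called, against 0.00468% of all, and in CpG-B + LIF vs CpG-B 0 of 11, against 0.0609%. At an unadjusted p under 0.05 those 3 comparisons held 2198, 1294 and 1618 of all probe sets. More members were called with the CpGs, as were more of all probe sets. CpG-A vs medium called 6 of 11 probe sets (1 higher, 0 lower, 5 unsettled), where 16.8% of all were called, and CpG-B vs medium called 7 of 11 (2 higher, 3 lower, 2 unsettled), where 18.9% of all were called. The median size of the members' readings was 0.84 in CpG-A vs medium and 0.62 in CpG-B vs medium, against 0.20 and 0.21 over all probe sets. The members' medians for LIF were 0.20 in resting cells, 0.06 under CpG-A and 0.11 under CpG-B, beside 0.14, 0.11 and 0.12 over all probe sets. CpG-A vs medium and CpG-B vs medium share the medium arrays, and LIF vs medium shares them as well.

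**Figure D1:**
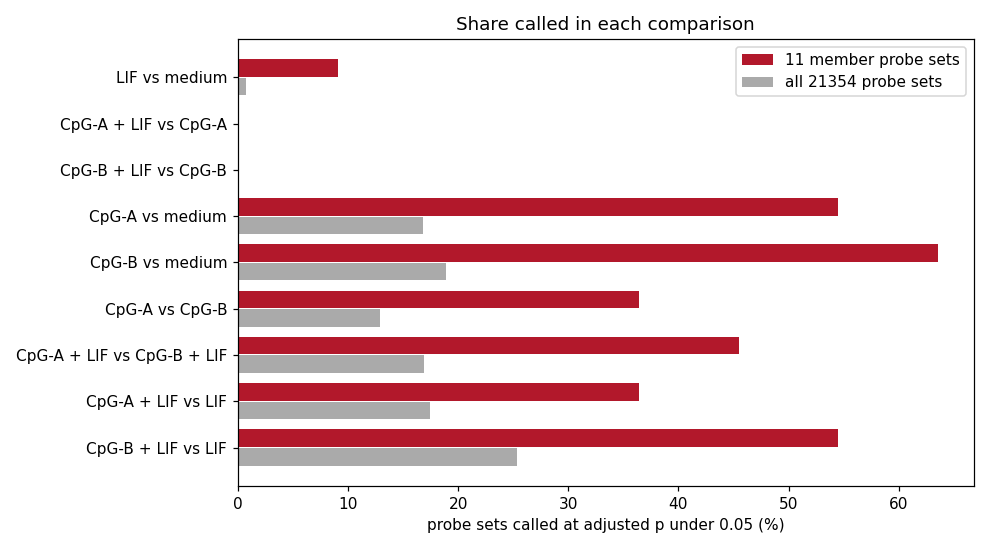
Share of probe sets called at an adjusted p under 0.05 (x axis, %) in each pairwise comparison (y axis), for the 11 member probe sets (red) and for all 21354 probe sets (grey). The member share is 63.6% in CpG-B vs medium and 54.5% in CpG-A vs medium, against 9.09% in LIF vs medium and 0% where LIF was added to either CpG.

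The other contrasts called between 0 and 6 members. CpG-A vs CpG-B called 4 of 11 (2 higher, 1 lower, 1 unsettled), where 12.9% of all probe sets were called, and CpG-A + LIF vs CpG-B + LIF called 5 of 11 (3 higher, 1 lower, 1 unsettled), where 16.9% were. CpG-A + LIF vs LIF called 4 of 11 (3 higher, 0 lower, 1 unsettled), beside 17.4% of all, and CpG-B + LIF vs LIF called 6 of 11 (1 higher, 5 lower), beside 25.3%. The mean of the 3 LIF effects called 0 of 11 members (0.66% of all, with 2151 of all probe sets at an unadjusted p under 0.05). That count takes Socs3 probe set 10393449 in LIF vs medium as -1.49 and not as 1.83. Its mean with the other reading was not tested. The interaction of LIF with CpG-A, which asks whether LIF acts differently with CpG-A than alone, called 1 of 11 (0.0421% of all). The interaction with CpG-B also called 1 of 11 (0.108% of all), and both calls are Socs3. With replicate number as a block the interactions still called 1 of 11 each, beside 0.0749% (CpG-A) and 0.244% (CpG-B) of all probe sets. All p-values measure the spread between arrays, since the labels do not say whether replicates came from separate mice.

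Expression levels cannot be read here, so the cell type cannot be checked by the level of its markers. Of 11 plasmacytoid dendritic cell marker probe sets, 0 were called in LIF vs medium (median reading -0.15), 5 in CpG-A vs medium and 9 in CpG-B vs medium, beside 0.731%, 16.8% and 18.9% of all probe sets. For the mean of the LIF effects 1 of 11 was called, 9.09% against 0.66% of all, with a list median of -0.18. This was Spib, a transcription factor gene of these cells named after its value was seen, lower at -0.41 ± 0.09 (adjusted p = 0.0390). Of 6 monocyte or macrophage marker probe sets, 1 was called in LIF vs medium (median 0.39), 4 in CpG-A vs medium and 4 in CpG-B vs medium. In LIF vs medium 0 of 5 B cell, 0 of 5 conventional dendritic cell, 0 of 4 T or NK cell and 0 of 5 neutrophil marker probe sets were called. In CpG-A vs medium those 4 lists had 2, 1, 0 and 2 called, and in CpG-B vs medium 1, 3, 1 and 3. Their part in the results on the LIF pathway was not tested. In RNA from whole cultures, fewer cells of a type and less RNA per cell cannot be told apart.

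The ligand-binding receptor chain Lifr lies on chromosome 15 (GRCm38.p6, chr15:7090610-7197489) and Il6st, for the signal-transducing chain gp130, on chromosome 13 (chr13:112464070-112506860). Both read lower with CpG-B, and in CpG-A vs medium both were called with unsettled direction. With the decimal mark set after the first digit, the digits of Lifr were 2.08, 2.06 and 2.26 in CpG-A + LIF cells and 2.20, 1.93 and 2.10 in CpG-A cells. They were 5.37, 5.13 and 5.13 in CpG-B + LIF cells, 5.05, 6.37 and 5.54 in CpG-B cells, 1.02, 1.11 and 1.09 in LIF cells, and 8.74 and 8.54 in medium. The arrays thus fell into 4 clusters that did not overlap, and each CpG group shared its cluster with the same CpG plus LIF. The clusters of medium (up to 0.02 from the medium mean) and LIF (from 0.24) lay closest, and LIF vs medium was not called (adjusted p = 0.371). The CpG-B arrays alone ran from -0.77 to -0.44, which is wider than that gap. The SD within groups, 0.094 log2 units, was at the 2.47th percentile of all probe sets. Lifr read -0.62 ± 0.12 in CpG-B vs medium (adjusted p = 0.00135), 1.54-fold lower. In CpG-B + LIF vs LIF it read -1.04 ± 0.11 (adjusted p = 2.46e-06), also lower. In CpG-A + LIF vs LIF it read 0.99 ± 0.11 (or -2.33, adjusted p = 6.18e-06), higher by the limit of 1.11. In CpG-A vs medium it read 1.26 ± 0.12 (or -2.06, adjusted p = 4.10e-06), which is unsettled.

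The 2 CpGs could be set side by side for Lifr in another way. In CpG-A vs CpG-B it read -1.44 ± 0.11 (or 1.88, adjusted p = 1.18e-06), and in CpG-A + LIF vs CpG-B + LIF -1.29 ± 0.11 (or 2.03, adjusted p = 2.06e-06). Those readings cannot all hold, because going round medium, CpG-A and CpG-B the nearest readings sum to 3.32 and not to 0, and likewise round the 3 LIF groups. Such a failure is rare: 98.1% of all probe sets added up on the first path and 97.9% on the second. The set of group offsets with the smallest span that does add up has medium at 0, CpG-A + LIF at 1.30 and CpG-A at 1.26 above it, LIF at 0.31, and CpG-B + LIF at -0.73 and CpG-B at -0.62 below it. It spans 4.09-fold. The next set leaves the other groups in place and puts CpG-A + LIF at -2.02 and CpG-A at -2.06, a span of 5.16-fold. In both sets LIF vs medium is 0.31 ± 0.12, where the arrays did not overlap but the difference was not called (adjusted p = 0.371). In both sets Lifr in CpG-B cells is lower than in medium, while CpG-A cells lie at one end of the range or the other. The next set has CpG-A + LIF below LIF (-2.33). The direction that the limit gave to CpG-A + LIF vs LIF thus holds in the first set only.

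**Figure D2:**
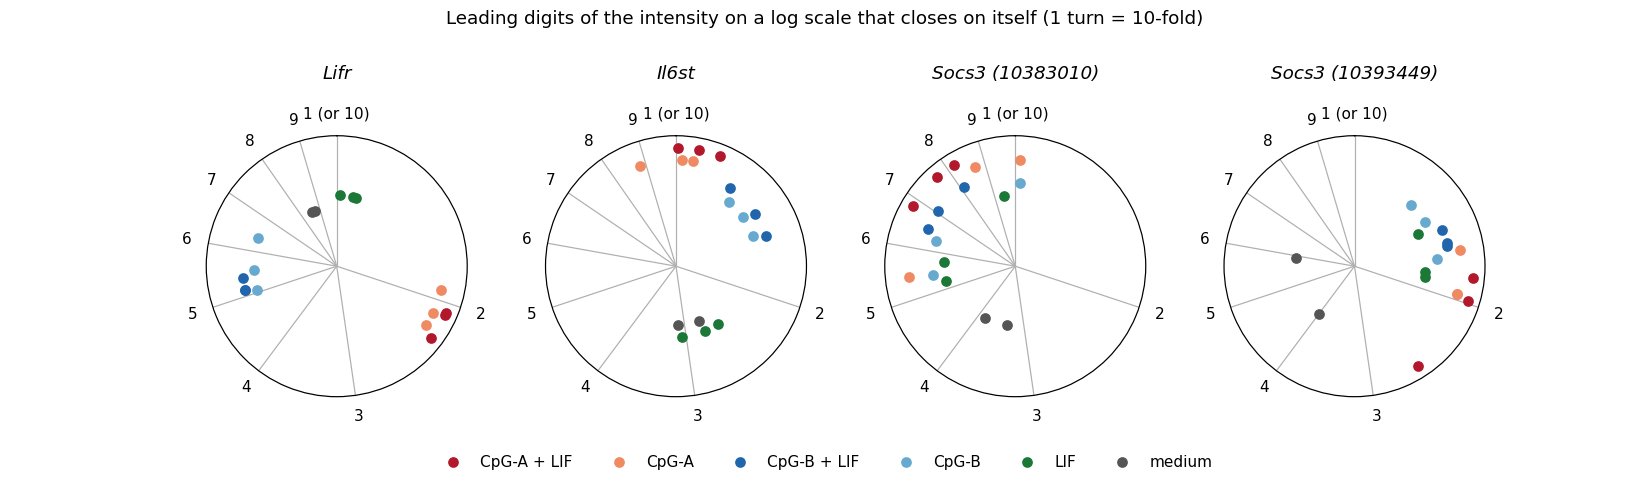
Leading digits of each of the 17 arrays for Lifr, Il6st and both Socs3 probe sets, as the angle on a log scale that closes on itself so that 1 turn is 10-fold. Colours are the 6 groups, distance from the centre only separates the groups, and 4 clusters are seen for Lifr, while for both Socs3 probe sets the 2 medium arrays lie apart from the 15 others.

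For Il6st the digits were 1.15, 1.01 and 1.07 in CpG-A + LIF cells, 8.81, 1.02 and 1.06 in CpG-A cells, 1.58, 1.44 and 1.25 in CpG-B + LIF cells and 1.41, 1.29 and 1.55 in CpG-B cells. LIF cells had 2.72, 2.51 and 3.07, and medium had 3.13 and 2.73. The CpG arrays stood clear of the LIF and medium arrays, and LIF and medium overlapped. In CpG-B vs medium Il6st read -1.05 ± 0.14 (adjusted p = 5.07e-05), 2.07-fold lower, and in CpG-B + LIF vs LIF -0.96 ± 0.13 (adjusted p = 2.37e-05). In CpG-A vs medium it read -1.57 ± 0.14 (or 1.75, adjusted p = 3.21e-06) and in CpG-A + LIF vs LIF -1.36 ± 0.13 (or 1.96, adjusted p = 1.91e-06). Between the CpGs Il6st was lower with CpG-A, at -0.52 ± 0.13 (adjusted p = 0.0109), a call lost without CpG-A replicate 1 (-0.44, adjusted p = 0.0626) or CpG-B replicate 3 (-0.45, adjusted p = 0.0559). With LIF present that difference was -0.40 ± 0.13 (adjusted p = 0.0420). It was lost without CpG-B replicate 1, CpG-B + LIF replicate 1 or 2, or any CpG-A + LIF array, at readings of -0.45 to -0.32 and adjusted p of 0.0512 to 0.181. All readings of Il6st added up, and the smallest set (2.97-fold) has every CpG group at -1.57 to -1.05 from medium. The next set (5.13-fold) has them at 1.75 to 2.28, and LIF is at -0.08 in both. The lower directions given by the limit in CpG-B vs medium and CpG-B + LIF vs LIF hold in the smallest set only. In that set CpG-A also lies below medium, at -1.57.

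Osmr, the oncostatin M receptor chain that also pairs with gp130, lies next to Lifr on chromosome 15 (chr15:6813568-6874968). It had 0 calls in the 9 pairwise comparisons. All 17 arrays fell within 0.53 log2 units (1.44-fold), from -0.22 in a CpG-B + LIF array to 0.30 in a CpG-A array relative to medium. Its 95% interval for LIF vs medium was -0.35 to 0.28. Lifr and Il6st were each called in 6 of the 9, and whether Osmr differs from them was not tested.

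The kinases Jak1, Jak2 and Tyk2 bind the inner part of the receptor chains, Jak1 being the one that gp130 signalling chiefly needs. Jak1 lies on chromosome 4 (chr4:101151974-101265282), Jak2 on chromosome 19 (chr19:29251803-29313095) and Tyk2 on chromosome 9 (chr9:21104068-21131393). Tyk2 showed the clearest differences, all of them lower readings with CpG-B. Relative to the medium mean its arrays stood at -0.58, -0.29 and -0.71 log2 units in CpG-A + LIF cells and -0.22, -0.43 and -0.20 in CpG-A cells. They stood at -1.16, -1.01 and -1.24 in CpG-B + LIF cells, -0.82, -0.69 and -0.99 in CpG-B cells, -0.68, -0.22 and -0.18 in LIF cells, and 0.11 and -0.11 in medium. The CpG-B + LIF arrays were the lowest of all, with no overlap with CpG-B. Tyk2 read -0.84 ± 0.17 in CpG-B vs medium (adjusted p = 0.00159), 1.79-fold lower, and -0.77 ± 0.15 in CpG-B + LIF vs LIF (adjusted p = 0.000872). It was higher in CpG-A vs CpG-B at 0.55 ± 0.15 (adjusted p = 0.0211). That call was lost without CpG-A replicate 1 or 3 or CpG-B replicate 1 or 3, at 0.47 to 0.56 and adjusted p of 0.0570 to 0.0920. In CpG-A + LIF vs CpG-B + LIF it read 0.61 ± 0.15 (adjusted p = 0.00899), a call lost without CpG-A + LIF replicate 2 (0.49, adjusted p = 0.0508). The LIF effects on Tyk2 were -0.36 ± 0.17, -0.24 ± 0.15 and -0.30 ± 0.15 in medium, CpG-A and CpG-B cells, and their mean of -0.30 ± 0.09 was not called (adjusted p = 0.190).

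Jak1 and Jak2 moved less. All Jak1 arrays lay within 0.46 log2 units (1.38-fold), and its single call was a lower reading in CpG-B + LIF vs LIF, -0.36 ± 0.11 (adjusted p = 0.0244). That call was lost without LIF replicate 1 or 3 or any CpG-B + LIF array, at -0.37 to -0.33 and adjusted p of 0.0541 to 0.0793. Jak2 arrays lay within 0.71 log2 units. Jak2 read higher in CpG-A + LIF vs CpG-B + LIF, at 0.49 ± 0.12 (adjusted p = 0.00833), and lower in CpG-B + LIF vs LIF, at -0.40 ± 0.12 (adjusted p = 0.0201). The second of these was lost without LIF replicate 1 (-0.32) or CpG-B + LIF replicate 2 (-0.36), at adjusted p of 0.0749 to 0.0985. The 3 CpG-B + LIF arrays of Jak2 (-0.18, -0.29 and -0.17 from medium) lay below the 3 CpG-B arrays (-0.03, 0.23 and 0.01), but LIF added to CpG-B was not called at -0.28 ± 0.12 (adjusted p = 0.602).

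Stat3, the transcription factor that carries the LIF signal, lies on chromosome 11 (chr11:100886806-100939594). It read higher with CpG-A whether or not LIF was present, and to a smaller extent with CpG-B alone. Its digits were 7.20, 6.65 and 7.86 in CpG-A + LIF cells, 7.45, 7.49 and 7.63 in CpG-A cells, 4.65, 4.75 and 4.95 in CpG-B + LIF cells and 5.92, 5.50 and 5.05 in CpG-B cells. LIF cells had 4.69, 4.82 and 4.94, and medium had 4.03 and 4.37. The 6 CpG-A arrays were above all others, the LIF arrays were above medium, and the CpG-B + LIF arrays were below the CpG-B arrays and among those of LIF. Stat3 was among the most even of all probe sets within groups, with an SD of 0.080 at the 0.94th percentile. In CpG-A vs medium it read 0.84 ± 0.12 (adjusted p = 7.21e-05), 1.79-fold higher, and in CpG-A + LIF vs LIF 0.58 ± 0.11 (adjusted p = 0.000610). Against CpG-B it was higher with CpG-A at 0.46 ± 0.11 (adjusted p = 0.00662), and with LIF in both at 0.59 ± 0.11 (adjusted p = 0.000654).

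The Stat3 increase in CpG-B vs medium, 0.38 ± 0.12 (adjusted p = 0.0281), was less firm. It was lost without medium replicate 1 (0.33, adjusted p = 0.199), medium replicate 3 (0.44, adjusted p = 0.0691), CpG-B replicate 1 (0.33, adjusted p = 0.105) or CpG-B replicate 2 (0.38, adjusted p = 0.0609). In CpG-B + LIF vs LIF Stat3 read -0.01 ± 0.11 (adjusted p = 0.963). LIF effects on Stat3 were 0.20 ± 0.12 in medium (adjusted p = 0.616), -0.06 ± 0.11 with CpG-A (adjusted p = 0.979) and -0.20 ± 0.11 with CpG-B (adjusted p = 0.718). The arrays did not overlap in the first and the last of these, but none was called. The interaction with CpG-B, the difference of those effects, was -0.39 ± 0.16 (adjusted p = 0.411).

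**Figure D3:**
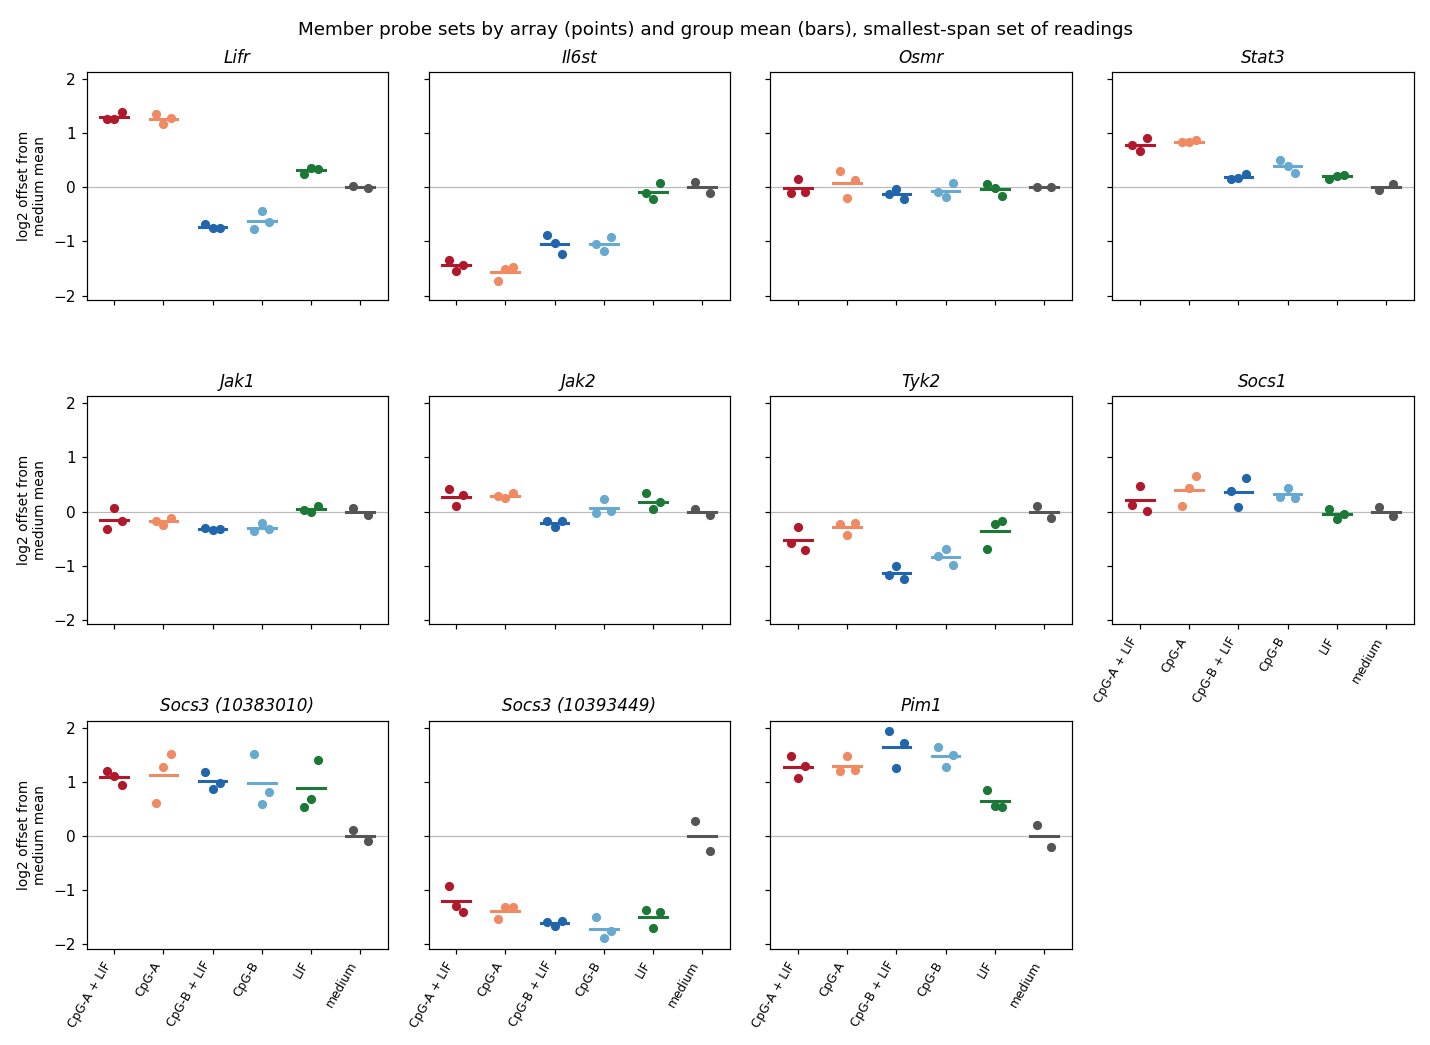
Offset of each array from the medium mean (y axis, log2 units) for the 11 member probe sets in the 6 groups (x axis), points being arrays and bars group means, under the set of readings of smallest span. Stat3 stands 0.84 above medium in CpG-A cells with little scatter, Tyk2 is lowest with CpG-B + LIF, Osmr is flat, and both Socs3 probe sets separate medium from all treated groups, on opposite sides of it in these readings.

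SOCS3 and SOCS1 are feedback inhibitors that STATs induce, SOCS3 acting on gp130 receptors and SOCS1 chiefly on interferon receptors. Socs3 lies on chromosome 11 (chr11:117966079-117970336) and was measured by probe set 10393449, with 3 listed transcript accessions including a RefSeq one, and by probe set 10383010, with 1. Of the 12 RefSeq windows that run from 250 bases before to 50 bases after the starts of the 10 genes, 1 held the STAT motif TTCNNNGAA, which reads the same on both strands. This was the window of Socs3, and 8.298% of 32841 mouse windows held it. The 250 bases before that Socs3 start (GRCm38.p6, chr11:117969367-117969616, minus strand, inside the annotated span of the gene) are shown because Socs3 holds the only call in the LIF comparisons. Capitals mark the motif, 154 to 146 bases before the start.
Socs3: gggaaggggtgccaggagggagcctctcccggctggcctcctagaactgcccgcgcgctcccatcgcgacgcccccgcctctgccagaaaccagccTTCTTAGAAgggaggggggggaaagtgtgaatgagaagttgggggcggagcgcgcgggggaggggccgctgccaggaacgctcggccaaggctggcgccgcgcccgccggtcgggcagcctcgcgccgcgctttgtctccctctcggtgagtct
The match is a description of the letters and not evidence of binding in these cells.

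Probe set 10393449 was called in LIF, CpG-A and CpG-B cells against medium, and the treated groups lay close to each other. The groups with CpG plus LIF were not compared with medium. Its digits were 2.57, 1.98 and 1.85 in CpG-A + LIF cells, 1.68, 1.96 and 1.96 in CpG-A cells, 1.63, 1.54 and 1.64 in CpG-B + LIF cells and 1.72, 1.32 and 1.45 in CpG-B cells. LIF cells had 1.89, 1.50 and 1.83, and medium had 5.93 and 3.99. None of the 15 treated arrays reached the medium arrays. Among the treated groups the CpG-A + LIF arrays stood above those of CpG-B + LIF and of CpG-B, and the CpG-A arrays above those of CpG-B + LIF, while the other treated groups overlapped. CpG-A + LIF vs CpG-B + LIF was not called, at 0.40 ± 0.16 (adjusted p = 0.112). Socs3 read -1.49 ± 0.18 in LIF vs medium (or 1.83, which is 3.56-fold higher; adjusted p = 0.000976). With only the LIF and medium arrays in the fit that call was lost (adjusted p = 0.0742). In CpG-A vs medium it read -1.38 ± 0.18 (or 1.94, adjusted p = 4.05e-05), and in CpG-B vs medium 1.61 ± 0.18 (or -1.71, adjusted p = 9.78e-06). Near the edge of the scale the sign of a nearest reading changes easily. Without medium replicate 3 the readings in LIF vs medium and CpG-A vs medium became 1.55 and 1.65, and without medium replicate 1 or CpG-B replicate 2 that in CpG-B vs medium became -1.43 or -1.62, and each of these remained called. These readings do not add up either, since the path through medium, CpG-A and CpG-B sums to -3.32. One set that adds up puts all 5 treated groups at -1.71 to -1.20 from medium, and the next puts all of them at 1.61 to 2.12 (span 3.27-fold and 4.34-fold).

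Once either CpG was present, LIF made no called difference to this Socs3 probe set. It read 0.18 ± 0.16 in CpG-A + LIF vs CpG-A (95% interval -0.16 to 0.52, adjusted p = 0.950) and 0.11 ± 0.16 in CpG-B + LIF vs CpG-B (95% interval -0.23 to 0.45, adjusted p = 0.941). The difference between the LIF effect with CpG-A and that without CpG was 1.67 ± 0.24 (adjusted p = 0.0275), and with CpG-B it was 1.60 ± 0.24 (adjusted p = 0.0122). With LIF vs medium read as 1.83 these interactions are -1.65 and -1.72, so their sign is unsettled. In either case the effect of LIF in medium was the larger in size, with the LIF effects under CpG at their nearest readings. The other readings under CpG, -3.14 with CpG-A and -3.21 with CpG-B, would be larger than that in medium. The CpG-A interaction lost its call without CpG-A replicate 1 or 3, CpG-A + LIF replicate 1, CpG-B replicate 3, CpG-B + LIF replicate 1 or either medium array. Its readings there were -1.37 to 1.71 and its adjusted p 0.0513 to 0.154. It was lost as well with group medians (1.42, adjusted p = 0.0607) and with only the arrays compared (adjusted p = 0.119). The CpG-B interaction lost its call without medium replicate 1 (1.32, adjusted p = 0.119) or medium replicate 3 (-1.44, adjusted p = 0.0690), and with replicate number as a block it was 1.55 (adjusted p = 0.00851).

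**Figure D4:**
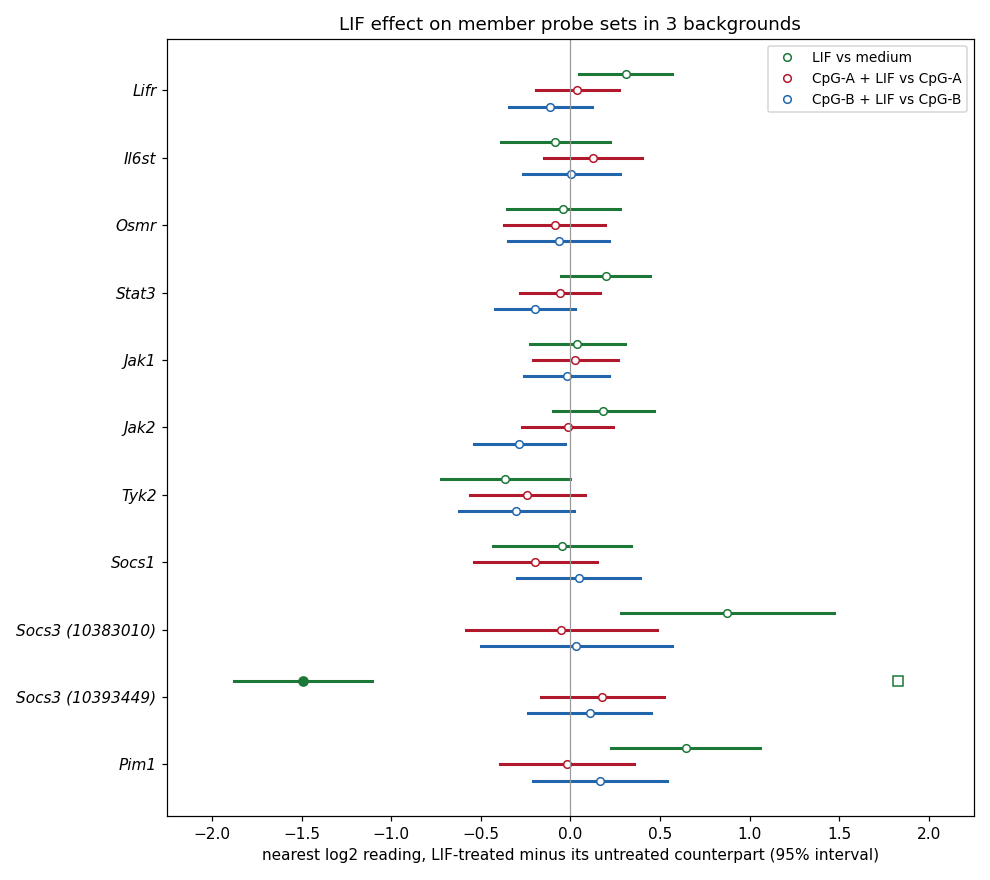
Nearest log2 reading (x axis) of LIF in cells in medium (green), with CpG-A (red) and with CpG-B (blue) for each member probe set (y axis), lines being 95% intervals, filled points called readings and the open square the other reading of the called one. The 22 readings under CpG lie between -0.30 and 0.18, and the called one in medium is Socs3 10393449 at -1.49 or 1.83.

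The other Socs3 probe set, 10383010, was noisier, with an SD within groups of 0.36 at the 94.5th percentile, against 0.21 for 10393449. Its digits were 8.18, 7.69 and 6.84 in CpG-A + LIF cells, 5.42, 8.68 and 1.02 in CpG-A cells, 8.10, 6.52 and 7.05 in CpG-B + LIF cells and 1.02, 5.41 and 6.28 in CpG-B cells. LIF cells had 5.21, 5.76 and 9.45, and medium had 3.83 and 3.34. The 15 treated arrays overlapped from group to group and stood clear of medium. It read higher in CpG-B vs medium at 0.97 ± 0.28 (or -2.35, adjusted p = 0.0203), a call lost without medium replicate 1 (1.08, adjusted p = 0.0676), medium replicate 3 (0.87, adjusted p = 0.148) or CpG-B replicate 1 (0.71, adjusted p = 0.101), and with group medians in place of means (0.81, adjusted p = 0.0521). In CpG-A vs medium it read 1.13 ± 0.28 (or -2.19, adjusted p = 0.00857), lost without medium replicate 3 (1.03, adjusted p = 0.0882). LIF vs medium was 0.88 ± 0.28 and was not called (adjusted p = 0.220).

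The 2 Socs3 probe sets thus give opposite signs when each is read at its smallest span, since 10383010 then has the treated groups 0.88 to 1.13 above medium. They give the same sign in all 5 treated groups when one of them is read at its second set. Those pairings are 10383010 at 0.88 to 1.13 with 10393449 at 1.61 to 2.12 above medium, or 10383010 at -2.44 to -2.19 with 10393449 at -1.71 to -1.20, below it. Only the first pairing keeps the higher direction that the limit gave to 10383010 in CpG-B vs medium. Likeness between 2 probe sets over the 17 arrays was measured by the mean resultant length of their difference, which is 1 when they run in parallel. It was 0.770 between the Socs3 probe sets, where the median over all probe sets was 0.623 for 10383010 and 0.663 for 10393449. Socs1 (chromosome 16, chr16:10783808-10785536) had 0 calls in 9 comparisons. Its arrays lay within 0.81 log2 units, at 0.40 ± 0.18 in CpG-A vs medium (adjusted p = 0.166), 0.32 ± 0.18 in CpG-B vs medium (adjusted p = 0.278) and -0.05 ± 0.18 in LIF vs medium (adjusted p = 0.965). In CpG-B + LIF vs LIF it was 0.41 ± 0.16 (adjusted p = 0.0767) and was called without CpG-B + LIF replicate 2 (0.55, adjusted p = 0.0313).

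**Figure D5:**
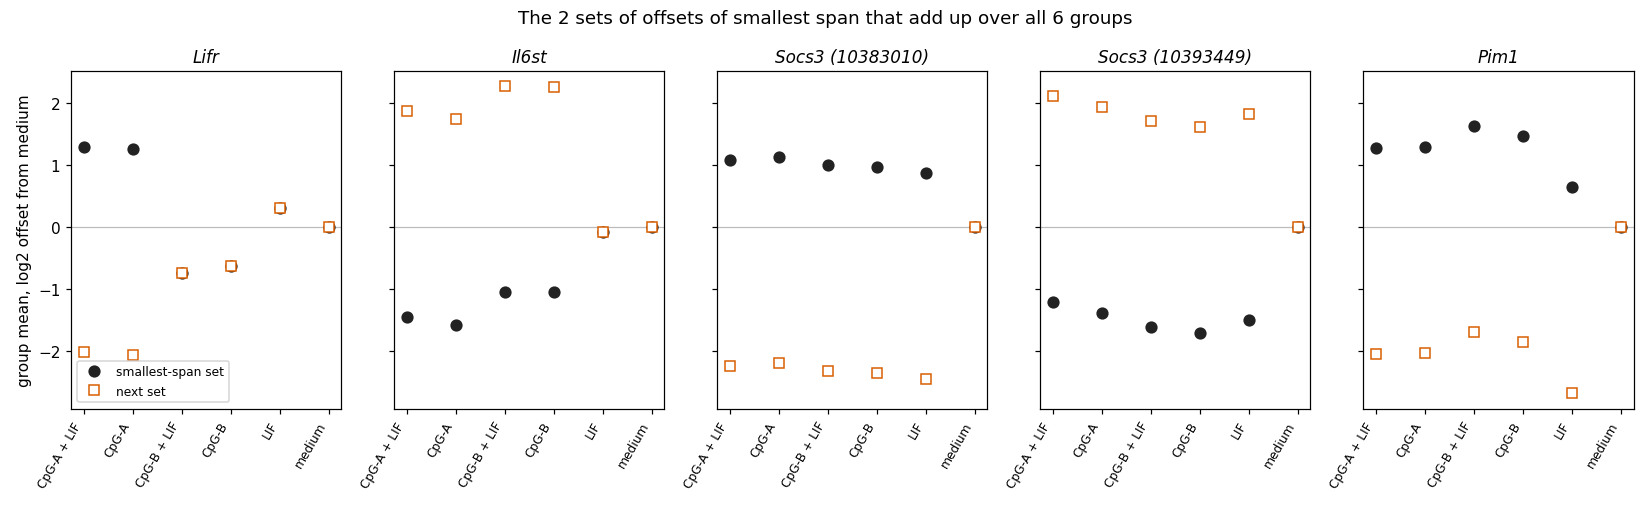
Group means as log2 offset from medium (y axis) in the 6 groups (x axis), for the 5 member probe sets with a called reading of unsettled direction, under the set of offsets of smallest span that adds up over all groups (filled) and the next set (open). For Lifr only the CpG-A groups differ between the sets (1.26 against -2.06 for CpG-A), and for both Socs3 probe sets and Pim1 all 5 treated groups change side together.

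Pim1, a serine/threonine kinase gene that STAT3 and STAT5 switch on, lies on chromosome 17 (chr17:29490785-29496111). It differed from medium with both CpGs and read higher with either CpG plus LIF than with LIF alone. Its digits were 2.83, 2.12 and 2.49 in CpG-A + LIF cells, 2.32, 2.84 and 2.35 in CpG-A cells, 3.89, 2.43 and 3.35 in CpG-B + LIF cells and 3.18, 2.46 and 2.87 in CpG-B cells. LIF cells had 1.84, 1.48 and 1.47, and medium had 1.17 and 8.85. The LIF arrays overlapped neither medium nor the CpG arrays. They lie between them at the smallest span, while in the next set the CpG groups lie between medium and LIF. Pim1 read 0.99 ± 0.18 in CpG-B + LIF vs LIF (adjusted p = 0.000362) and 0.63 ± 0.18 in CpG-A + LIF vs LIF (adjusted p = 0.0175). The second call was lost without CpG-A + LIF replicate 1 or 3 or LIF replicate 2 or 3, at 0.53 to 0.62 and adjusted p of 0.0507 to 0.0869. Pim1 read 1.29 ± 0.20 in CpG-A vs medium (or -2.03, adjusted p = 0.000164) and, in CpG-B vs medium, 1.47 ± 0.20 (or -1.85, adjusted p = 4.24e-05), which became -1.65 without medium replicate 1. LIF vs medium was 0.64 ± 0.20 and was not called (adjusted p = 0.192). Under the 2 sets of smallest span LIF alone lay on the same side of medium as the CpGs. It was at 0.64 in the first (CpG groups at 1.28 to 1.64) or at -2.68 in the second (CpG groups at -2.05 to -1.68). A set with LIF at 0.64 and the CpG groups at -2.05 to -1.68 adds up as well. There LIF and the CpGs lie on opposite sides of medium, so a shared side is not shown.

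The order of the groups can be read for the probe sets whose arrays all lie within 1.66 log2 units, as they do for 7 of 11 members and 87.1% of all probe sets. This holds under the smallest span only. For Stat3 the order of group means was CpG-A (0.84) and CpG-A + LIF (0.78), then CpG-B (0.38), LIF (0.20) and CpG-B + LIF (0.19), then medium, and the neighbours CpG-A and CpG-A + LIF, and LIF and CpG-B + LIF, did not differ beyond their spread. For Tyk2 it was medium, CpG-A (-0.29), LIF (-0.36), CpG-A + LIF (-0.53), then CpG-B (-0.84) and last CpG-B + LIF (-1.14), where no step between neighbours that was tested was called. For Jak2 the means ran from 0.29 with CpG-A to -0.21 with CpG-B + LIF, for Jak1 from 0.04 with LIF to -0.32 with CpG-B + LIF, and for Socs1 from 0.40 with CpG-A to -0.05 with LIF.

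The probe sets running most nearly parallel to a member over the 17 arrays were found by the same resultant length, as a description with no test. Points within a group share a treatment, so the measure mostly follows the 6 groups. Stat3 ran closest to Sp100, an interferon-induced nuclear body protein (0.985), and to Clic4 (0.982), where the median over all probe sets was 0.764. Il6st ran closest to Traf3ip3 (0.950) and to Bmpr2, a BMP receptor (0.948), where the median was 0.445. Lifr ran closest to the chemokine receptor gene Ccr4 (0.907) and to Chpt1, an enzyme of phosphatidylcholine synthesis (0.892), where the median was 0.185. Pim1 ran closest to the transcription factor gene Nfe2l1 (0.931) and to Slfn2 (0.919), where the median was 0.536. Socs3 10393449 ran closest to P2rx7, an ATP-gated channel (0.878), and Il13ra1, an IL-13 receptor chain (0.874), and Socs3 10383010 to the protease gene Lgmn (0.889) and to Birc3, an inhibitor of cell death (0.882).

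Other genes of the pathway were described by 3 lists. Of the other IL-6 family ligands and receptors, 12 of 15 genes were found, with 1 probe set each. In the 3 LIF comparisons 0 of 12 were called, beside 0.731% (medium), 0.00468% (CpG-A) and 0.0609% (CpG-B) of all probe sets. Lif itself read -0.16 ± 0.18 in LIF vs medium (adjusted p = 0.836), and Il31ra -0.33 ± 0.14 (adjusted p = 0.427). CpG-A vs medium called 3 of 12, 25% against 16.8% of all probe sets. Il27, a subunit of the cytokine IL-27, read higher at 1.04 ± 0.24 (or -2.28, adjusted p = 0.00452), Il6ra, the ligand-binding IL-6 receptor chain, lower at -0.75 ± 0.18 (adjusted p = 0.00590), and Clcf1, a gp130 cytokine, 1.57 ± 0.22 (or -1.75). CpG-B vs medium called 4 of 12, 33.3% against 18.9% of all. Il6ra again read lower, at -0.96 ± 0.18 (adjusted p = 0.000672), while Il6, Il27 and Ebi3, the partner subunit of IL-27, were unsettled. The median reading of the list was -0.05 in LIF vs medium, 0.05 in CpG-A vs medium and -0.19 in CpG-B vs medium, against -0.02, -0.02 and -0.05 over all probe sets.

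Of the other JAKs, STATs and pathway inhibitors, 20 of 22 genes were found, with 24 probe sets. In the 3 LIF comparisons 0 of 24 were called, where 0.731% (medium), 0.00468% (CpG-A) and 0.0609% (CpG-B) of all probe sets were. Stat2, a carrier of interferon signals, and Ptpn1, a phosphatase that acts on JAKs, had the smallest adjusted p for the mean of the 3 LIF effects. Those means were -0.23 ± 0.08 (adjusted p = 0.234) for Stat2 and 0.20 ± 0.08 (adjusted p = 0.392) for Ptpn1. CpG-A vs medium called 8 of 24 (5 higher, 1 lower, 2 unsettled), 33.3% against 16.8% of all probe sets. Ptpn2, a phosphatase of JAKs and STATs, read higher at 0.88 ± 0.17 (adjusted p = 0.00138), and Cish, a SOCS family inhibitor, higher at 0.69 ± 0.18 (adjusted p = 0.00986). In CpG-B vs medium 6 of 24 were called (3 higher, 1 lower, 2 unsettled), 25% against 18.9% of all, with Ptpn2 higher at 0.98 ± 0.17 (adjusted p = 0.000471). The 2 probe sets of Socs2 read 0.77 and 1.04 in CpG-A vs medium, both higher, and in CpG-B vs medium 1.05 and -1.36, the second unsettled (or 1.96).

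The STAT3 target list had 30 of 30 genes found, with 31 probe sets. In LIF vs medium 5 of 31 were called, 16.1%, against 0.731% of all probe sets, and the median reading was 0.26 against -0.02. The count fell to 0 without medium replicate 3, to 1 without medium replicate 1 or with only the arrays compared, and to 3 without LIF replicate 1 or 3, alternatives added after seeing the data. Il4ra, the IL-4 receptor chain, read higher at 0.79 ± 0.16 (adjusted p = 0.0292). Directions were unsettled for the acute phase gene Saa3 (1.57 ± 0.24, or -1.75, adjusted p = 0.00402), the nuclear NF-kB cofactor Bcl3 (1.17 ± 0.23, or -2.15, adjusted p = 0.0251) and the secreted prothrombinase-like Fgl2 (-1.65 ± 0.26, or 1.67, adjusted p = 0.00402). Ccnd1, for cyclin D1, read -1.31 ± 0.18 (or 2.01, adjusted p = 0.00247). With CpG-A and with CpG-B, LIF gave 0 of 31 calls, beside 0.00468% and 0.0609% of all probe sets. Ccnd1 read -0.55 ± 0.16 (adjusted p = 0.442) and -0.65 ± 0.16 (adjusted p = 0.210) there, and Saa3 0.33 ± 0.22 (adjusted p = 0.920) and 0.08 ± 0.22 (adjusted p = 0.975). The mean of the 3 LIF effects called 2 of 31, where 0.66% of all probe sets were called. These were Saa3 at 0.66 ± 0.13 (adjusted p = 0.0280) and Ccnd1 at -0.84 ± 0.10 (adjusted p = 0.000940), both of unsettled direction. With 1 array left out that count was 1 to 3, and 1 for both medium arrays in turn. The size and call of both means also rest on the nearest readings in LIF vs medium, and means with the other readings were not tested. Each interaction called 1 of 31, beside 0.0421% (CpG-A) and 0.108% (CpG-B) of all probe sets. The called gene was Fgl2, at 2.14 ± 0.34 (adjusted p = 0.0457) with CpG-A and 1.86 ± 0.34 (adjusted p = 0.0412) with CpG-B. Both take Fgl2 in LIF vs medium as -1.65 and not as 1.67, so their sign, size and call are unsettled. Leaving out 1 array gave 0 to 2 (CpG-A) and 0 to 1 (CpG-B) of 31, and 0 for both medium arrays in turn. The interactions of the other genes named were not called, at -1.24 ± 0.33 (adjusted p = 0.283, CpG-A) and -1.49 ± 0.33 (adjusted p = 0.0938, CpG-B) for Saa3 and 0.76 ± 0.24 (adjusted p = 0.437, CpG-A) and 0.66 ± 0.24 (adjusted p = 0.362, CpG-B) for Ccnd1. These too hold for the nearest readings only. With LIF vs medium at -1.75 for Saa3 or 2.01 for Ccnd1 the interactions were not tested, so their absence is not shown. CpG-A vs medium called 11 of 31 (4 higher, 2 lower, 5 unsettled) and CpG-B vs medium 11 of 31 (5 higher, 3 lower, 3 unsettled), 35.5% each, against 16.8% and 18.9% of all probe sets. Cebpb, an acute phase transcription factor, read higher in both (1.02 ± 0.18 and 0.66 ± 0.18), as did Junb, an AP-1 subunit (0.93 ± 0.17 and 0.58 ± 0.17), and Klf4 read lower in both (-0.62 ± 0.14 and -0.83 ± 0.14).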

How the data were processed

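Affymetrix arrays were hybridised with total RNA of 17 samples, grouped by their titles. Per the submitters' processing notes the intensities were made with RMA (version not given in the sources used here), and the authors' deposited values are digits of linear intensities: of 419560 cells 1 kept its decimal mark, 90.0% have 10 digits and 9.04% have 9, so the power of 10 is unknown. Of 24680 probe sets, 21354 carry 1 symbol, 1275 several and 2051 none, and those with 1 were used, with no filter on low values. Circular means gave the group values, from which an array deviates by the shorter way round. The 17 arrays entered a single limma model (version 3.58.1, R 4.3.3) with a term for each group and 11 residual degrees of freedom, checked on simulated data. The mean of LIF effects and the interactions combine nearest readings without folding again. The limit on directions, the members and the lists were chosen with earlier results of these data known. Genes named from each list were those called in at least 2 of the 3 LIF comparisons, or otherwise the 2 with the smallest adjusted p for the LIF effects averaged, and others named there were chosen after their values were seen. Windows and positions are RefSeq's (GRCm38.p6), and 10 of 10 members matched. No pair of arrays was identical (0 pairs). Alternatives tried were another group centre, centring, probe set choice, robust moderation, arrays fitted, opening at the widest gap, a replicate block and leaving out each array. Same-numbered arrays had deviations correlated at -0.08 to 0.24, above 0.1 in 8 of 40 pairs. All 3 pairs of CpG-B + LIF with CpG-B were above it (0.117 to 0.242), so numbers were taken to pair those groups, but not the groups of the other comparisons. All 3 pairs of LIF with CpG-A, groups not compared, were above it as well (0.101 to 0.147). The main fit had no term for the number, so CpG-B + LIF vs CpG-B was tested there without pairing, and only the replicate block takes it in. Depth does not apply to arrays, and their number limits the precision.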

Additional observations from a re-analysis of the deposited data

Results flagged for a closer look

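The effect of LIF on Socs3 probe set 10393449 differed between cells with and without CpG in the test of the difference itself, a call that depends on the arrays fitted. LIF with CpG-A less LIF alone was 1.67 ± 0.24 log2 units (adjusted p = 0.0275), or -1.65 with LIF vs medium read as 1.83. LIF with CpG-B less LIF alone was 1.60 ± 0.24 (adjusted p = 0.0122), or -1.72. The first had no call under 9 of 25 alternatives (adjusted p up to 0.154), and the second under 2 of 25, which leave out a medium array (1.32 and -1.44, adjusted p up to 0.119). In LIF vs medium the 3 LIF arrays stood apart from the 2 medium arrays, and with either CpG the arrays with and without LIF overlapped. Probe set 10383010 of the same gene gave -0.93 ± 0.38 (adjusted p = 0.620) with CpG-A and -0.84 ± 0.38 (adjusted p = 0.481) with CpG-B. With its LIF vs medium read as -2.44 they are 2.39 and 2.48, which were not tested, so their sign and size are unsettled too. Both medium arrays enter all 4 of these interactions, and the cause of the difference was not tested.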

How the results depend on the processing

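Of 35 called member readings, 16 kept sign and call under every alternative run and 19 changed under at least 1. The replicate block changed none of the 132 readings' calls and none of the 12 counts (1 in LIF vs medium, 7 in CpG-B vs medium and 6 in CpG-A vs medium). Over all probe sets it moved the calls to 216 for the mean LIF effect (141 without it), to 16 for the CpG-A interaction (9) and to 52 for the CpG-B interaction (23), and 12 of 17 arrays were closest to their own number. Calls over all probe sets in LIF vs medium were 156, against 10 without medium replicate 3, 30 without medium replicate 1, 82 without LIF replicate 1 and 11 with only the arrays compared. With 1 array left out they ranged from 44 to 154 (mean LIF effect), 1 to 31 (CpG-A interaction), 3 to 34 (CpG-B interaction), 1 to 10 (LIF added to CpG-B, 13 with all arrays), 0 to 3 (LIF added to CpG-A, 1 with all) and, against medium, 2320 to 3722 (CpG-A) and 2602 to 4173 (CpG-B). The count in LIF vs medium was 0 with only the arrays compared (Socs3 10393449 at -1.49, adjusted p = 0.0742), and that of the CpG-A interaction was 0 with group medians (1.42) and with only the arrays compared. Leaving out 1 array gave counts of 5 to 7 (CpG-B vs medium), 5 to 6 (CpG-A vs medium), 4 to 6 (CpG-B + LIF vs LIF), 3 to 4 (CpG-A + LIF vs LIF), 2 to 4 (CpG-A vs CpG-B), 3 to 5 (CpG-A + LIF vs CpG-B + LIF), 0 to 1 (mean LIF effect) and 0 to 1 (each interaction). Opening at the widest gap turned Socs3 10393449 in CpG-B vs medium to -1.71, and Lifr to 1.88 in CpG-A vs CpG-B and 2.03 in CpG-A + LIF vs CpG-B + LIF. With 1 array left out, readings near the edge of the scale were folded to the other sign: Socs3 10393449 ranged from -1.55 to 1.55 (LIF vs medium), -1.42 to 1.65 (CpG-A vs medium), -1.62 to 1.63 (CpG-B vs medium), -1.37 to 1.77 (CpG-A interaction) and -1.44 to 1.71 (CpG-B interaction). Its mean LIF effect, uncalled at -0.40, ranged from -0.45 to 0.61 and was called at 0.61 without medium replicate 3 (adjusted p = 0.0180) and at -0.45 without CpG-A + LIF replicate 1 (adjusted p = 0.0490). Il6st ranged from -1.62 to 1.65 (CpG-A vs medium) and Pim1 from -1.65 to 1.57 (CpG-B vs medium). With only the arrays compared, Stat3 in CpG-B vs medium lost its call (adjusted p = 0.109), as did Jak1 (0.0537) and Jak2 (0.0548) in CpG-B + LIF vs LIF and Il6st (0.0735) in CpG-A + LIF vs CpG-B + LIF. Pim1 in CpG-A + LIF vs CpG-B + LIF was called without CpG-B + LIF replicate 2 (-0.55, adjusted p = 0.0466). Medium has 2 arrays, and signal over background cannot be read without decimal marks. A protein comparison was not run.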
